A study of Mus musculus with 14 samples.

Results

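Pralsetinib-resistant cultures of TR.1 cells were compared with parental cultures of the same line by RNA sequencing. TR.1 is a mouse lung adenocarcinoma line that carries a Trim24-Ret fusion, which joins the kinase domain of the receptor tyrosine kinase Ret to part of Trim24, and every group used here carries it. Members were chosen by their labels alone, as the pralsetinib-resistant and parental libraries, and they make up 4 of the 14 samples of the series. There was 1 resistant library labelled 200 nM pralsetinib and 1 labelled 400 nM pralsetinib, against 2 parental libraries that had been passaged in 0.1% DMSO. Pralsetinib (BLU667) is a selective inhibitor of the RET kinase. By the labels' protocol the resistant cultures began in 30 nM inhibitor and were escalated for about 60 days until they grew in 400 to 500 nM, and the parental cultures were passaged alongside. The 200 nM label lies below that range, so the dose of that library is uncertain. A further 2 libraries, of cultures resistant to 500 nM selpercatinib, another RET inhibitor, are used where the resistant groups are compared with each other. The labels do not say whether libraries of a group came from separate cultures or which cells survived the selection, so p-values measure the spread between these libraries, which may be technical.

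RET normally answers ligands of the glial cell line-derived neurotrophic factor family, and fusions keep its kinase active without ligand. The kinase feeds RAS, RAF, MEK and ERK, and active ERK induces its own brakes, among them Sprouty proteins, SPRED proteins and dual-specificity phosphatases, whose transcripts are widely used as a readout of the pathway. Lung cancer cells under prolonged kinase inhibition are known to be able to survive through other receptors or through a change of cell state, in which epithelial junction genes go down and matrix genes go up.

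Libraries held between 60.7 and 81.9 M counts, and 3 counts corresponded to between 0.0366 and 0.0494 CPM (counts scaled to a common library size). Intervals and floors cover counting error only. Expression is given as CPM after scaling by the trimmed mean of M-values (TMM), and in each pair of resistant values the 200 nM library stands before the 400 nM library. Mitochondrially encoded transcripts took 3.13 and 3.16% of counts in the pralsetinib-resistant libraries, against 1.67 and 1.73% in the parental libraries, and the part of this difference in the results was not tested. Of 18 leukocyte markers 4 passed the filter and of 12 endothelial markers 2 did, with Ptprc, Cd3e, Adgre1, Pecam1, Cdh5 and Emcn below 1 CPM in every library. The leukocyte list summed to 97.5 and 59.4 CPM in the pralsetinib-resistant libraries, against 35.9 and 34.8 CPM in the parental libraries, and the endothelial list to 7.71 and 7.20 CPM, against 5.56 and 5.43 CPM. Nearly all of the leukocyte sum came from the 4 markers that passed the filter. In the test given below, 1 of these 4 was called higher than in parental cultures, 1 was called lower and 2 were not called. The 2 endothelial markers that passed were both called higher, as were 36.0% of all genes. In a fit of the 4 pralsetinib-resistant and parental libraries alone, or with limma-voom, 1 was called higher. The part of these markers in the results was not tested. Markers that define alveolar type 2 cells, the surfactant genes Sftpc and Sftpb and the protease gene Napsa, were below 0.1 CPM in every library of both groups, while 12 of 22 alveolar and airway markers reached 1 CPM in at least 2 of the 6 libraries. Nkx2-1, a transcription factor of lung epithelium, had 2.44 CPM at 200 nM and 0.568 CPM at 400 nM, against 1.84 and 1.86 CPM in parental cultures.

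Of 14389 genes with at least 1 CPM in at least 2 of the 6 libraries, 10192 (70.8%) passed edgeR's quasi-likelihood test at an adjusted p of 0.05, 5174 (36.0%) higher and 5018 (34.9%) lower in the pralsetinib-resistant cultures. A change of at least 2-fold was found for 2261 genes (15.7%) that rose and 1719 genes (11.9%) that fell. For all 10192 called genes the values of the resistant libraries did not overlap with those of the parental libraries. With 2 libraries per group a call nearly implies this, so it is no further support. Of the 3980 genes called at 2-fold or more, 3951 had the same call when each resistant library was set alone against the parental pair. The median log2 fold change over all genes was 0.0060. With such a share of genes called, the number of members called in a gene list has to be read against these percentages.

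Ret itself (chr6:118151745-118197718, minus strand, mm10) had 41.0 and 34.5 CPM with pralsetinib resistance and 53.8 and 50.0 CPM in parental cells. Its log2 fold change was -0.46 (SE 0.10, adjusted p = 0.0034), and that of Trim24, the fusion partner, was -0.29 (SE 0.078, adjusted p = 0.01), so both transcripts were a little lower in the resistant cultures; without the first parental library the call of Trim24 was lost (adjusted p = 0.064). Counts per gene hold the reads of the fusion and of the intact genes together. Met (chr6:17463800-17573980, plus strand), a receptor tyrosine kinase that can drive resistance to other kinase inhibitors, had 281 and 387 CPM in the pralsetinib-resistant libraries, against 164 and 169 CPM in the parental libraries. It rose by 1.01 (SE 0.13, adjusted p = 2.76e-04) on the log2 scale and was higher in the 400 nM library than in the 200 nM library, by 0.46 (SE 0.066, adjusted p = 4.31e-04).

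**Figure D1:**
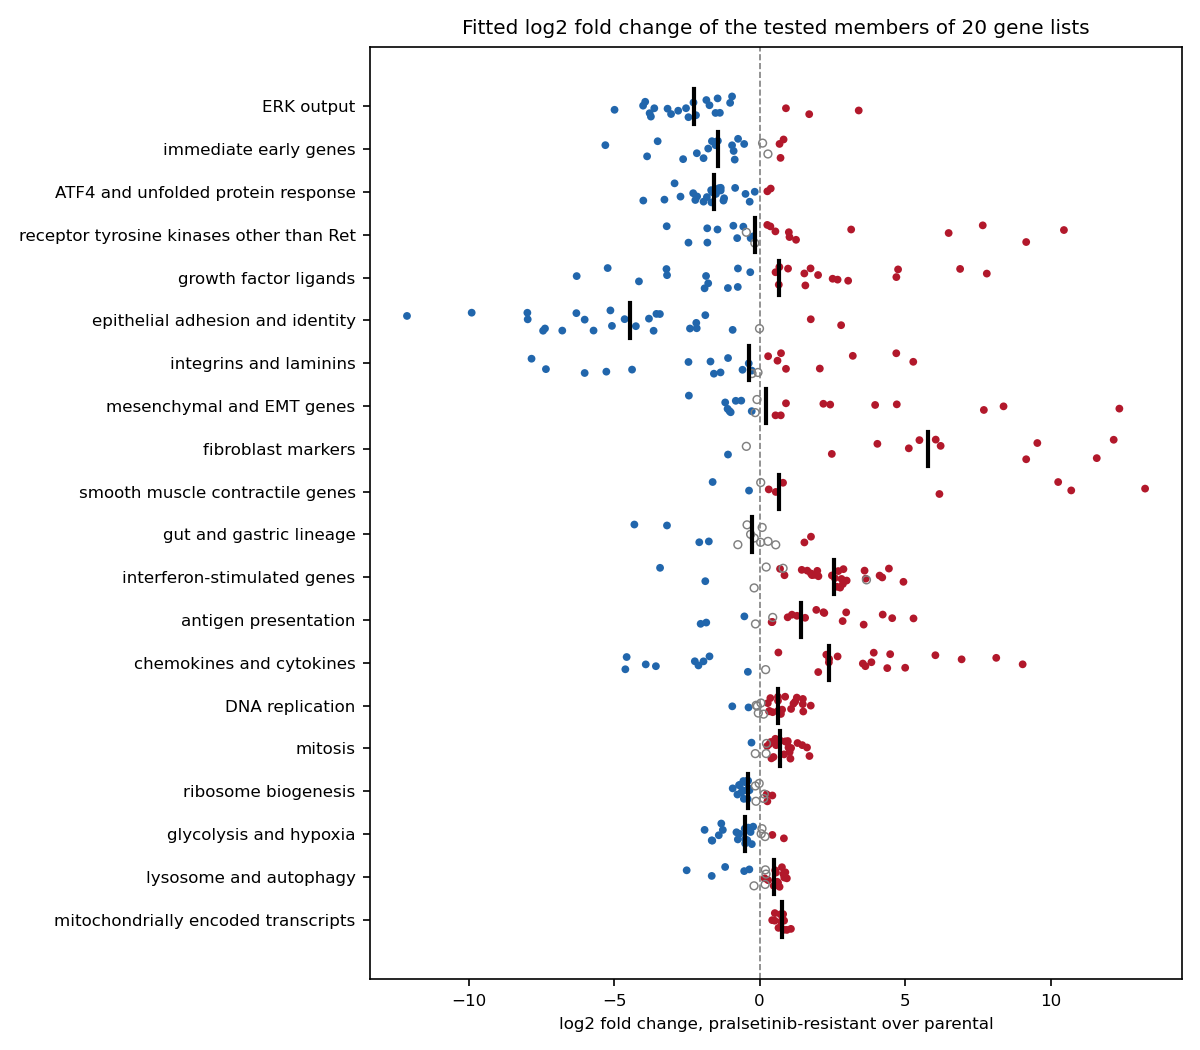
Log2 fold change of each tested member of 20 gene lists in pralsetinib-resistant over parental libraries. Filled red dots are genes called higher, filled blue dots genes called lower and open grey dots genes not called; the black bar is the median of the list and the dashed line the median of all 14389 genes. Epithelial, ERK output and ATF4 genes lie mostly left of the line, and fibroblast, interferon and chemokine genes mostly right of it.

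Transcripts induced by ERK were low in the pralsetinib-resistant cultures. The ERK output list had 20 members lower and 3 higher of 23 measured, and a median log2 fold change of -2.27. Among the transcription factors, Etv5, an ETS factor that ERK induces, had 6.76 CPM at 200 nM and 6.84 CPM at 400 nM, against 83.4 and 83.5 CPM in parental cultures, and its log2 fold change was -3.62 (SE 0.08, adjusted p = 3.77e-08). The 2 resistant libraries were nearly equal and lay 12.3-fold below the parental libraries. Etv4, another ETS factor of the same subfamily, changed by -2.27 (SE 0.11, adjusted p = 1.24e-06), Fosl1, an AP-1 subunit, by -3.04 (SE 0.088, adjusted p = 1.04e-07), and Myc, a regulator of growth, by -2.19 (SE 0.065, adjusted p = 1.10e-07). Ccnd1, which encodes cyclin D1, had 147 and 187 CPM with pralsetinib resistance and 960.5 and 962 CPM in parental cells.

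The feedback brakes were lower too. Dusp6, a phosphatase of ERK, had 44.2 and 34.6 CPM in the pralsetinib-resistant libraries, against 345 and 361 CPM in the parental libraries. Its log2 fold change was -3.16 (SE 0.11, adjusted p = 2.63e-07), and the difference of the 400 from the 200 nM library was -0.35 (SE 0.071, adjusted p = 0.0042). Dusp4 and Dusp5, nuclear phosphatases of the same family, fell by 3.78 (SE 0.12, adjusted p = 1.78e-07) and 4.98 (SE 0.18, adjusted p = 2.57e-07). Spry2 and Spry4, Sprouty inhibitors of receptor signalling, changed by -2.80 (SE 0.081, adjusted p = 1.04e-07) and -4.00 (SE 0.15, adjusted p = 2.82e-07). Spred1, Spred2 and Spred3, which restrain RAS, fell by less, with log2 fold changes of -1.01, -1.44 and -1.36. Their relative Spry1 went the other way, at 36.3 CPM at 200 nM and 43.7 CPM at 400 nM, against 13.3 and 11.3 CPM in parental cultures, a log2 fold change of 1.70 (SE 0.13, adjusted p = 1.12e-05). The other members that rose were Epha4, an ephrin receptor, at 0.91 (SE 0.065, adjusted p = 8.71e-06), and the interleukin-33 receptor gene Il1rl1, at 3.41 (SE 0.46, adjusted p = 2.82e-04).

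Immediate early genes, which are induced within minutes by growth factors and also by handling, numbered 16 lower and 3 higher of 21, with a median of -1.43, and 5 were higher without the 400 nM library. Egr3, a zinc finger factor, had 0.591 and 0.332 CPM with pralsetinib resistance and 19.5 and 17.0 CPM in parental cells. Nr4a1, an orphan nuclear receptor, changed by -3.50 (SE 0.14, adjusted p = 5.03e-07), Ier2 by -1.43 (SE 0.079, adjusted p = 2.28e-06) and Junb, an AP-1 subunit, by -1.64 (SE 0.12, adjusted p = 8.75e-06). Jun and Fosl2, AP-1 subunits as well, and the antiproliferative gene Btg2 were the 3 that rose, with log2 fold changes of 0.82, 0.72 and 0.69. Egr1 and Ier3 are in both lists.

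Changes in the components of the cascade were smaller than those in its targets. Of 23 measured components 13 fell and 5 rose, 3 without either parental library, with a median of -0.28. Sos2, an exchange factor that loads RAS with GTP, had 28.4 and 29.5 CPM in the pralsetinib-resistant libraries, against 106 and 109 CPM in the parental libraries. Rasa1, a GTPase-activating protein that switches RAS off, had 42.2 CPM at 200 nM and 50.1 CPM at 400 nM, against 158 and 166 CPM in parental cultures. Their log2 fold changes were -1.89 (SE 0.087, adjusted p = 8.50e-07) and -1.81 (SE 0.09, adjusted p = 1.33e-06). The RAS gene Nras fell by 0.62 (SE 0.073, adjusted p = 1.28e-04), as did the kinase gene Map2k1, by 1.00 (SE 0.084, adjusted p = 2.17e-05). Rasgrp3, another RAS exchange factor, rose by 2.14 (SE 0.18, adjusted p = 1.86e-05), the RAS-related GTPase gene Mras by 1.17 (SE 0.10, adjusted p = 2.01e-05) and the scaffold gene Ksr1 by 0.98 (SE 0.08, adjusted p = 1.86e-05). The RAF genes Braf and Araf did not pass the test, with log2 fold changes of 0.16 and 0.11 and adjusted p = 0.126 and 0.166 in edgeR.

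Receptors of the fibroblast growth factor (FGF) family moved in opposite directions. Fgfr2 (chr7:130162451-133123350, minus strand) had 163 and 203 CPM with pralsetinib resistance and 0.860 and 0.929 CPM in parental cells, a log2 fold change of 7.67 (SE 0.16, adjusted p = 2.64e-08). Fgfr3 had 40.6 and 42.7 CPM in the pralsetinib-resistant libraries, against 0.316 and 0.570 CPM in the parental libraries, a log2 fold change of 6.50 (SE 0.17, adjusted p = 6.02e-08). Fgfr1 was lower instead, at 21.2 CPM at 200 nM and 21.4 CPM at 400 nM, against 73.1 and 75.2 CPM in parental cultures, with -1.80 (SE 0.067, adjusted p = 3.03e-07). In all, 23 of 30 receptor tyrosine kinases other than Ret passed the filter, 5 of them only outside the parental libraries, and 11 rose and 10 fell, with a median of -0.16.

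In the ERBB family Erbb3, which has almost no kinase activity of its own and signals with partners, fell to 6.02 and 5.92 CPM in pralsetinib-resistant libraries, against 54.5 and 54.6 CPM in parental libraries. Egfr changed by -0.90 (SE 0.066, adjusted p = 1.02e-05), Erbb2 by 0.37 (SE 0.085, adjusted p = 0.0052), and Erbb4 was at 1.98 and 3.02 CPM in pralsetinib-resistant libraries and had no count in parental libraries, at least 111-fold higher. The ephrin receptor Epha2 fell by 2.44 (SE 0.07, adjusted p = 9.66e-08), the TAM family receptors Axl and Mertk by 0.77 (SE 0.058, adjusted p = 1.20e-05) and 1.45 (SE 0.12, adjusted p = 2.42e-05), and the vascular endothelial growth factor (VEGF) receptor Flt1 by 1.79 (SE 0.065, adjusted p = 2.78e-07). Ddr1, a collagen receptor, rose by 1.03 (SE 0.059, adjusted p = 2.77e-06). Pdgfrb, a platelet-derived growth factor receptor common in pericytes and fibroblasts, had 48.0 and 23.3 CPM with pralsetinib resistance and 0.0526 and 0.0663 CPM in parental cells, while its relative Pdgfra did not pass, at -0.45 (adjusted p = 0.129, edgeR).

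Ligands of EGFR fell together and several ligands of other receptors rose. Of 27 measured growth factor ligands 15 rose and 12 fell, with a median of 0.66. Of these ligands 6 passed the filter only outside the parental libraries, so that little but a rise could be called for them, and 1 only through them. Areg, which encodes amphiregulin, had 4.98 and 2.03 CPM in the pralsetinib-resistant libraries, against 259 and 287 CPM in the parental libraries. Its log2 fold change was -6.28 (SE 0.29, adjusted p = 9.38e-07), and the EGFR ligand genes Btc, Ereg, Tgfa and Hbegf had log2 fold changes of -5.22, -3.18, -1.84 and -1.77, each called lower. Egf was the EGFR ligand gene of the list that was called higher. It had 2.18 CPM at 200 nM and 2.55 CPM at 400 nM, against 1.63 and 1.60 CPM in parental cultures. DESeq2 did not call it (adjusted p = 0.057). The call was also lost without the first or the second parental library, or without the 400 nM library. The log2 fold changes of Egf were then 0.55, 0.52 and 0.44. Nrg1, which encodes the ERBB3 and ERBB4 ligand neuregulin 1, had 83.8 and 95.2 CPM with pralsetinib resistance and 15.8 and 15.6 CPM in parental cells, with 2.51 (SE 0.083, adjusted p = 1.83e-07). Csf1, the macrophage growth factor gene, had 884 and 1085 CPM in the pralsetinib-resistant libraries, against 149.5 and 158 CPM in the parental libraries, with 2.68 (SE 0.10, adjusted p = 3.43e-07).

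Of the ligands of the RET coreceptors, Gdnf rose and Artn fell. Gdnf had 14.0 CPM at 200 nM and 19.9 CPM at 400 nM, against 1.82 and 2.24 CPM in parental cultures, a log2 fold change of 3.04 (SE 0.21, adjusted p = 7.49e-06). Artn had 0.211 and 0.277 CPM with pralsetinib resistance and 4.39 and 4.32 CPM in parental cells, with -4.15 (SE 0.25, adjusted p = 3.25e-06). Fgf18, an FGF family ligand of FGFR3, had 5.19 and 3.93 CPM in the pralsetinib-resistant libraries, against 0.175 and 0.172 CPM in the parental libraries. Fgf10, a ligand of FGFR2, had 1.65 CPM at 200 nM and 2.35 CPM at 400 nM, against 0.0175 and 0.0133 CPM in parental cultures. Fgf2 went down, by 3.20 (SE 0.14, adjusted p = 7.65e-07). Igf1, an insulin-like growth factor gene, had 19.6 and 35.3 CPM with pralsetinib resistance and 8.98 and 9.46 CPM in parental cells. Igf2 had 10.4 and 3.97 CPM in the pralsetinib-resistant libraries, against 0.0526 and 0.0133 CPM in the parental libraries. At 400 nM Igf1 was the higher and Igf2 the lower, with differences of 0.85 (SE 0.10, adjusted p = 1.20e-04) and -1.39 (SE 0.24, adjusted p = 0.0013) from the 200 nM library. Hgf, the MET ligand gene, rose by 4.76 (SE 0.33, adjusted p = 7.18e-06), to 2.60 and 2.39 CPM in pralsetinib-resistant libraries against 0.0702 and 0.106 CPM in parental libraries, and Vegfa fell by 1.89 (SE 0.089, adjusted p = 9.44e-07).

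**Figure D2:**
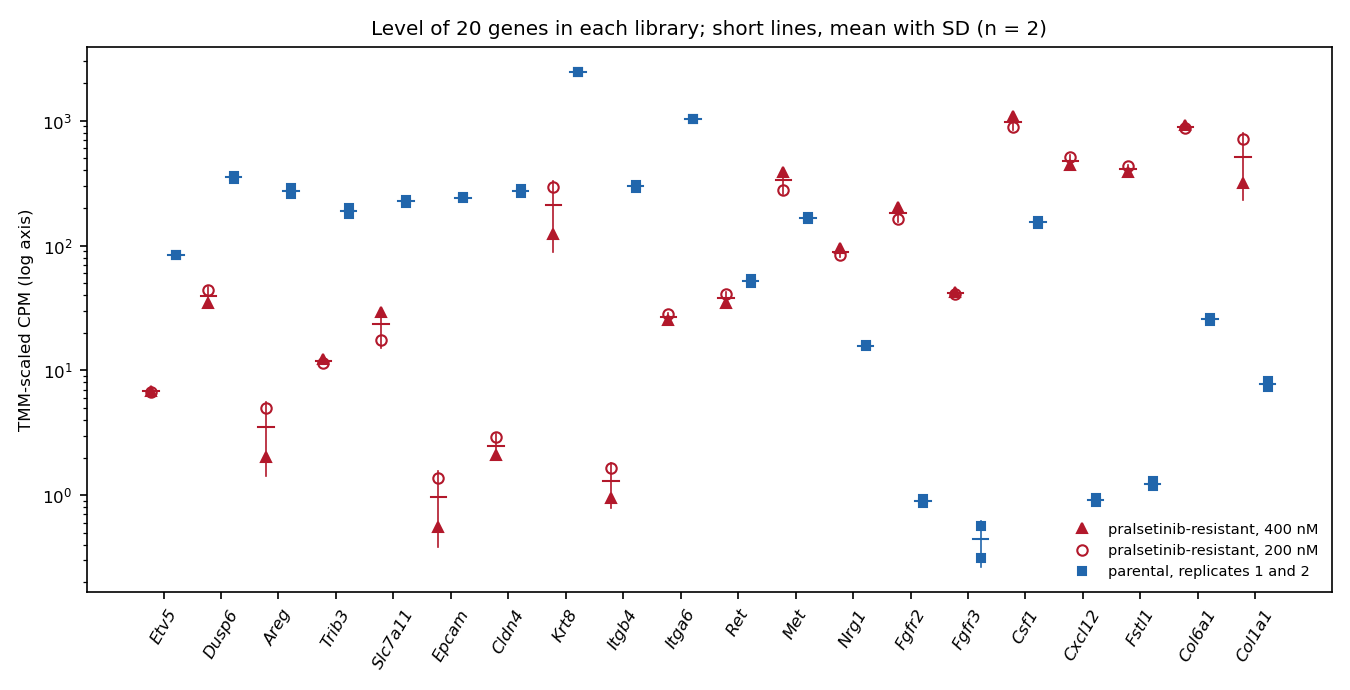
Expression of 20 named genes in each library, on a log10 axis of TMM-scaled CPM. Filled triangles are the 400 nM and open circles the 200 nM pralsetinib-resistant library, squares are the parental libraries, and lines give the mean ± SD (n = 2 per group). Areg lies between 2.03 and 4.98 CPM in pralsetinib-resistant and between 259 and 287 CPM in parental libraries, and Fgfr2 between 163 and 203 CPM against 0.860 and 0.929 CPM.

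Targets of ATF4, a transcription factor of amino acid shortage and endoplasmic reticulum stress, were low in the pralsetinib-resistant cultures. Of 24 measured members of the ATF4 and unfolded protein response list 22 fell and 2 rose, with a median of -1.56. A match to the core of the C/EBP-ATF response element, TGATGNAA, was looked up on both strands in RefSeq promoters (GRCm38.p6), from 250 bases before to 50 after the start. Of the 24 listed genes 22 have a promoter in that table. Of these, 7 (31.8%) hold the match, against 2.66% of the 10247 tested genes and 4.51% of all 27025 genes with a promoter. The list was chosen with earlier results of these data known, so this share only describes it. Atf4, Ddit4 and Sesn2 fell without a match. A stretch around the match, which is in capitals, is shown for the asparagine synthetase gene Asns (chr6:7693195-7693262, minus strand, match at -23) and the glutathione-degrading enzyme gene Chac1 (chr2:119351019-119351086, plus strand, match at -193), so that the letters searched for can be seen in their place; positions count from the transcription start, and a match is a description of letters and not a binding site.
Asns: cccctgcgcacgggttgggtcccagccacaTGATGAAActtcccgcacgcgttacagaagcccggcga
Chac1: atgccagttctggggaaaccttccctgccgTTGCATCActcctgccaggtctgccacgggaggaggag

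Asns had 79.9 CPM at 200 nM and 91.4 CPM at 400 nM, against 384 and 408 CPM in parental cultures. Chac1 had 9.54 and 11.4 CPM with pralsetinib resistance and 67.2 and 70.4 CPM in parental cells. Their log2 fold changes were -2.21 (SE 0.08, adjusted p = 2.80e-07) and -2.72 (SE 0.10, adjusted p = 2.80e-07). As for all 10192 called genes, the values of the groups did not overlap for either gene, which is no further support. Atf4 itself fell, at 275 and 259 CPM in the pralsetinib-resistant libraries, against 711 and 703 CPM in the parental libraries. Trib3, a pseudokinase induced late in the response, had 11.4 CPM at 200 nM and 12.4 CPM at 400 nM, against 179 and 199 CPM in parental cultures, the largest fall of the list by log2 fold change, at -4.00 (SE 0.087, adjusted p = 3.52e-08). The growth inhibitors Ddit4 and Sesn2, both brakes on mTORC1, changed by -2.28 (SE 0.068, adjusted p = 1.10e-07) and -2.15 (SE 0.073, adjusted p = 1.99e-07). Enzymes of serine and one-carbon metabolism were lower, with log2 fold changes of -1.65 for Phgdh, -1.81 for Psph, -1.33 for Psat1, -1.66 for Shmt2, -1.50 for Mthfd2 and -2.92 for Aldh1l2. Slc7a11, the cystine transporter gene, had 17.4 and 29.3 CPM with pralsetinib resistance and 219.6 and 232 CPM in parental cells, with a dose difference of 0.75 (SE 0.078, adjusted p = 4.17e-05). The 2 members that rose, Hsp90b1 and Sdf2l1, are chaperone genes of the endoplasmic reticulum, at 0.27 (SE 0.056, adjusted p = 0.0032) and 0.38 (SE 0.13, adjusted p = 0.0309), and the chaperone gene Hspa5 had -0.17 (SE 0.065, adjusted p = 0.0491). In an edgeR fit of the 4 pralsetinib-resistant and parental libraries alone, neither Hspa5 nor Sdf2l1 was called (adjusted p = 0.13 and 0.051). Hspa5 was also not called by edgeR with a minimum of 5 CPM or with no filter (adjusted p = 0.077 and 0.079). Without the second parental library Hspa5 was not called, at -0.12, nor was Sdf2l1 without the first, at 0.20.

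Epithelial identity genes made up the list with the lowest median. Of 28 listed genes 26 passed the filter, 8 of them only through the parental libraries, for which little but a fall could be called. Of the 26, 23 fell and 2 rose, with a median of -4.44, and 14 fell without either parental library, where fewer pass the filter. The hexamer CACCTG, the E-box letters bound by SNAI and ZEB repressors, was looked up on either strand. It was present in 14 of the 17 listed genes with a RefSeq promoter (82.4%), against 21.0% of the tested and 22.6% of all promoters. The list was chosen with earlier results of these data known, so this share only describes it. The match did not follow the change of each gene. Ovol2 and Spint1 fell without it, while Tjp3, which rose, and Elf3, which was not called, hold it. Shown with their matches in capitals are Epcam (chr17:87635762-87635827, plus strand, first match at -187), Cldn7 (chr11:69965294-69965359, plus strand, -97) and Rab25 (chr3:88548308-88548373, minus strand, -64), chosen as members with a low level in the resistant libraries.
Epcam: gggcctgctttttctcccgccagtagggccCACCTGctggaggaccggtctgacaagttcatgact
Cldn7: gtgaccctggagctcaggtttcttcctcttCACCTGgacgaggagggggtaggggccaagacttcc
Rab25: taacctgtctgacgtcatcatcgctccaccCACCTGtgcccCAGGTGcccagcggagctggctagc

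Epcam, an epithelial adhesion molecule, had 1.38 and 0.554 CPM in the pralsetinib-resistant libraries, against 239 and 245 CPM in the parental libraries, a log2 fold change of -7.97 (SE 0.23, adjusted p = 1.04e-07). Cldn7, a tight junction claudin gene, had 0.479 CPM at 200 nM and 0.526 CPM at 400 nM, against 82.0 and 85.3 CPM in parental cultures. Cldn4, another claudin gene, had 2.90 and 2.09 CPM with pralsetinib resistance and 263 and 285 CPM in parental cells. Their log2 fold changes were -7.37 (SE 0.12, adjusted p = 9.92e-09) and -6.78 (SE 0.14, adjusted p = 2.60e-08). Rab25, an epithelial trafficking GTPase, had 0.155 and 0.125 CPM in the pralsetinib-resistant libraries, against 33.7 and 37.6 CPM in the parental libraries. Regulators of the epithelial programme were among the lowest. Esrp1, a splicing factor, had 0.0282 CPM at 200 nM and 0.0138 CPM at 400 nM, against 101 and 100.2 CPM in parental cultures, lower by a ratio of 4812 (95% counting interval 1646 to 23338). Grhl2, a transcription factor, had 0.296 and 0.360 CPM with pralsetinib resistance and 21.5 and 21.1 CPM in parental cells. The transcription factor gene Ovol2 had no count in the pralsetinib-resistant libraries and 1.96 and 1.47 CPM in the parental libraries, at least 80.4-fold lower. The membrane protease gene St14 and its inhibitor gene Spint1 changed by -7.44 (SE 0.12, adjusted p = 1.22e-08) and -5.07 (SE 0.13, adjusted p = 5.51e-08).

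Keratins and cadherins fell by less and differed between the resistant libraries. Krt8, the keratin of simple epithelia, had 296 and 125 CPM in the pralsetinib-resistant libraries, against 2465 and 2448 CPM in the parental libraries. Its partner Krt18 had 272 CPM at 200 nM and 158 CPM at 400 nM, against 2656 and 2711 CPM in parental cultures. Cdh1, which encodes E-cadherin, had 263 and 100.2 CPM with pralsetinib resistance and 811 and 814 CPM in parental cells. Cdh3, which encodes P-cadherin, had 9.32 and 4.64 CPM in the pralsetinib-resistant libraries, against 12.7 and 13.7 CPM in the parental libraries. Each resistant library lay below both parental libraries, although for Cdh3 the call was lost without the first or the second parental library (adjusted p = 0.057 and 0.085). The difference of the 400 from the 200 nM library was -1.25 (SE 0.077, adjusted p = 6.68e-07) for Krt8, -1.40 (SE 0.091, adjusted p = 9.93e-07) for Cdh1 and -1.38 (SE 0.13, adjusted p = 1.30e-05) for the desmosome gene Dsp. In the comparison of the 400 nM with the 200 nM library, 14 of the 26 members were called lower and none higher, where 1409 (9.79%) of all genes were lower and 1064 (7.39%) higher. The summed level of the listed genes was 1532 and 805 CPM in the pralsetinib-resistant libraries, against 10523 and 10631 CPM in the parental libraries. Against the direction of the list, the ETS factor gene Ehf rose to 70.1 and 65.7 CPM in pralsetinib-resistant libraries, against 11.0 and 8.62 CPM in parental libraries, and the junction gene Tjp3 rose by 1.76 (SE 0.25, adjusted p = 3.88e-04). Elf3, a relative of Ehf, did not pass, at -0.003 (SE 0.16, adjusted p = 0.987). In these bulk libraries, fewer cells of a type and less RNA per cell cannot be told apart.

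Hemidesmosome and epithelial laminin genes fell alongside. Itgb4, the integrin chain of hemidesmosomes, had 1.66 CPM at 200 nM and 0.941 CPM at 400 nM, against 306 and 289 CPM in parental cultures. Its partner Itga6 had 28.3 and 25.3 CPM with pralsetinib resistance and 1028 and 1035 CPM in parental cells. Both were lower in each pralsetinib-resistant library, with log2 fold changes of -7.84 (SE 0.17, adjusted p = 3.77e-08) and -5.27 (SE 0.082, adjusted p = 9.55e-09). Chains of laminin 332, which anchors epithelial cells to the basement membrane, had log2 fold changes of -7.34 for Lama3 and -4.38 for Lamb3. Lamb3 had 11.8 and 4.76 CPM in the pralsetinib-resistant libraries, against 169 and 176 CPM in the parental libraries. The laminin chains Lama4 and Lama1, typical of vessels and of embryonic membranes, rose by 5.28 (SE 0.34, adjusted p = 5.10e-06) and 4.70 (SE 0.29, adjusted p = 4.28e-06). The collagen receptor chain Itga1 had 25.7 CPM at 200 nM and 60.2 CPM at 400 nM, against 4.63 and 4.70 CPM in parental cultures, with a dose difference of 1.23 (SE 0.11, adjusted p = 1.45e-05), while Itga2, the chain of another collagen receptor, fell by 2.44 (SE 0.081, adjusted p = 1.78e-07). Of 23 integrin, laminin and basement membrane genes, 2 of which passed the filter only outside and 1 only through the parental libraries, 13 fell and 8 rose, with a median of -0.37.

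Matrix protease genes and genes of their inhibitors were called in both directions, as were all genes (36.0% higher and 34.9% lower). The urokinase gene Plau had 5.73 and 6.04 CPM with pralsetinib resistance and 441 and 438 CPM in parental cells, a log2 fold change of -6.22 (SE 0.074, adjusted p = 3.96e-09), and its receptor gene Plaur changed by -2.16 (SE 0.09, adjusted p = 5.30e-07). Serpinb2, an inhibitor of urokinase, had no count in the pralsetinib-resistant libraries and 8.61 and 10.7 CPM in the parental libraries, at least 469-fold lower. The protease inhibitor gene Serpine2 rose by 1.65 (SE 0.094, adjusted p = 2.65e-06). Adamts5 and Adamts1, genes of proteases that cut proteoglycans, rose. Adamts5 had 55.3 and 62.0 CPM in the pralsetinib-resistant libraries, against 1.09 and 1.09 CPM in the parental libraries. Adamts1 had 122 CPM at 200 nM and 171 CPM at 400 nM, against 7.42 and 8.97 CPM in parental cultures. Collagenase gene Mmp13 and stromelysin gene Mmp10 changed by -3.44 (SE 0.39, adjusted p = 1.14e-04) and -4.46 (SE 0.37, adjusted p = 2.06e-05), whereas stromelysin gene Mmp3 rose by 4.58 (SE 0.41, adjusted p = 2.96e-05) and the inhibitor gene Timp3 by 3.80 (SE 0.092, adjusted p = 4.85e-08). Of 22 members, 1 of which passed the filter only outside and 1 only through the parental libraries, 12 rose and 7 fell, with a median of 0.70.

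Collagens and other genes of fibroblasts were high in the pralsetinib-resistant cultures. Of 17 fibroblast markers 12 passed the filter, 5 of them only outside the parental libraries, and 10 rose and 1 fell, with a median of 5.77. Col1a1, a chain of type I collagen, had 717 and 315 CPM with pralsetinib resistance and 8.23 and 7.36 CPM in parental cells. Col1a2, the other chain, had 127 and 256 CPM in the pralsetinib-resistant libraries, against 0.123 and 0.0133 CPM in the parental libraries. Col1a1 was lower in the 400 nM than in the 200 nM library, at -1.19 (SE 0.086, adjusted p = 2.20e-06), and Col1a2 was higher there, at 1.01 (SE 0.094, adjusted p = 1.45e-05), a difference not called by DESeq2 (adjusted p = 0.74). Col6a1, a chain of the microfibrillar type VI collagen, had 869 CPM at 200 nM and 924 CPM at 400 nM, against 26.2 and 25.1 CPM in parental cultures, and Col6a1 and Col6a2 rose by 5.13 (SE 0.08, adjusted p = 9.55e-09) and 6.22 (SE 0.09, adjusted p = 8.97e-09). Dcn, the collagen-binding proteoglycan decorin, had 198 and 96.6 CPM with pralsetinib resistance and 0.0175 and 0.0398 CPM in parental cells. Col6a3 was the marker that fell, by 1.09 (SE 0.25, adjusted p = 0.0056).

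The summed level of the fibroblast markers was 2913 and 2417 CPM in the pralsetinib-resistant libraries, against 112 and 107 CPM in the parental libraries. Lum, Fap, Mfap5, Pi16 and Dpt, the other markers of the list, did not reach the filter. Whether fibroblasts were present in the cultures was not tested. Among 10 measured contractile genes, 4 of which passed the filter only outside the parental libraries, 7 rose and 2 fell, with a median of 0.68. Only 1 fell when any library other than the 200 nM library was left out. Acta2, which encodes smooth muscle actin, had 236 and 99.5 CPM in the pralsetinib-resistant libraries, against 0.175 and 0.0398 CPM in the parental libraries, lower at 400 than at 200 nM by edgeR, at -1.24 (SE 0.083, adjusted p = 1.05e-06), but not by DESeq2 (adjusted p = 0.53). Myl9, a myosin light chain gene, had 22.8 and 11.8 CPM in the pralsetinib-resistant libraries and no count in the parental libraries, at least 763-fold higher. The calponin gene Cnn1 had 12.6 CPM at 200 nM and 10.3 CPM at 400 nM, against 0 and 0.0133 CPM in parental cultures, a ratio of 1514 (95% counting interval 271 to 59854). Smtn, which encodes smoothelin, fell by 1.61 (SE 0.068, adjusted p = 5.53e-07).

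General mesenchymal genes were called in both directions, as were all genes (36.0% higher and 34.9% lower). Of 20 members, 4 of which passed the filter only outside the parental libraries, 10 rose and 8 fell, with a median of 0.23. Fstl1, a secreted follistatin relative, had 436 and 392 CPM with pralsetinib resistance and 1.18 and 1.29 CPM in parental cells, a log2 fold change of 8.38 (SE 0.13, adjusted p = 1.01e-08). Sparc, a matricellular protein gene, had 1763 and 1503 CPM in the pralsetinib-resistant libraries, against 355 and 360.1 CPM in the parental libraries. Cdh2, which encodes N-cadherin, had 487 CPM at 200 nM and 631 CPM at 400 nM, against 102 and 106 CPM in parental cultures. Of the factors known to repress Cdh1, Zeb1 rose by 0.73 (SE 0.075, adjusted p = 6.43e-05) and Twist1 by 4.71 (SE 0.31, adjusted p = 5.57e-06), Snai1 and Snai2 changed by -0.99 (SE 0.15, adjusted p = 4.90e-04) and -1.10 (SE 0.11, adjusted p = 6.70e-05), and Zeb2 and Twist2 did not pass the test, at -0.089 and -0.15. Vim, which encodes vimentin, and the hyaluronan receptor gene Cd44 were high in both groups and lower in the pralsetinib-resistant cultures. Vim had 1985 and 1879.5 CPM with pralsetinib resistance and 3356 and 3457 CPM in parental cells. Cd44 had 278 and 345 CPM in the pralsetinib-resistant libraries, against 633 and 643 CPM in the parental libraries.

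Among TGF-beta genes, Tgfb2 had 220.3 CPM at 200 nM and 218 CPM at 400 nM, against 2.14 and 2.24 CPM in parental cultures, a log2 fold change of 6.64 (SE 0.10, adjusted p = 9.04e-09). Tgfb1 and the activin gene Inhba fell, by 1.10 (SE 0.14, adjusted p = 1.95e-04) and 1.70 (SE 0.086, adjusted p = 1.43e-06), and Bmp7, a bone morphogenetic protein gene of epithelia, fell to 2.28 and 1.31 CPM in pralsetinib-resistant libraries, against 131 and 141 CPM in parental libraries. The signal transducer gene Smad3 changed by -1.32 (SE 0.056, adjusted p = 5.57e-07) and the coreceptor gene Tgfbr3 by 2.75 (SE 0.14, adjusted p = 1.60e-06). Over the list, 13 of 24 rose and 7 fell, with a median of 0.37, and 1 passed the filter only outside and 1 only through the parental libraries. For YAP/TEAD targets the counts were 15 higher and 5 lower of 22, with a median of 0.47. Birc3, an inhibitor of apoptosis, rose by 1.83 (SE 0.082, adjusted p = 7.65e-07), Amotl2, a YAP-binding protein gene, by 1.31 (SE 0.061, adjusted p = 9.41e-07) and the matricellular gene Ccn1 by 1.46 (SE 0.10, adjusted p = 6.03e-06), while Ccn2 fell by 0.94 (SE 0.069, adjusted p = 9.90e-06) and Ankrd1 did not pass, at -0.16 (SE 0.071, adjusted p = 0.0737).

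In the Wnt and Notch list 11 of 25 rose and 12 fell, with a median of -0.24; 6 passed the filter only outside and 1 only through the parental libraries. Wnt7a, a Wnt ligand gene, had 0.127 and 0.0554 CPM with pralsetinib resistance and 62.8 and 64.8 CPM in parental cells. Wnt7b had 20.6 and 12.6 CPM in the pralsetinib-resistant libraries, against 247 and 249 CPM in the parental libraries. Of the other ligand genes, Wnt4 and Wnt5a rose, by 5.07 (SE 0.27, adjusted p = 1.90e-06) and 0.90 (SE 0.072, adjusted p = 1.61e-05). Sfrp2, a secreted Wnt modulator, had 185 CPM at 200 nM and 229.7 CPM at 400 nM, against 0.0351 and 0.0265 CPM in parental cultures. Axin2, a target of the beta-catenin pathway, had 3.22 and 3.65 CPM with pralsetinib resistance and 0.0526 and 0.0398 CPM in parental cells. The Notch ligand genes Jag1, Jag2 and Dll1 fell, with log2 fold changes of -1.75, -2.93 and -4.70, and the receptor genes Notch3 and Notch1 rose, by 4.28 (SE 0.11, adjusted p = 6.13e-08) and 1.41 (SE 0.12, adjusted p = 2.72e-05). Hes1 and Nrarp, Notch targets, changed by -1.57 (SE 0.093, adjusted p = 3.28e-06) and -3.52 (SE 0.19, adjusted p = 1.94e-06), and Hey1, another, by 0.84 (SE 0.14, adjusted p = 9.00e-04).

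Interferon-stimulated genes rose. These genes are switched on by a complex that holds STAT2 and IRF9 and binds the interferon-stimulated response element, or by IRF factors directly. Of 33 listed genes 30 passed the filter, 12 of them only outside the parental libraries, and 24 rose and 2 fell, with a median of 2.54. The core of that element, written here as GAAA, any 2 bases and GAAA again, was looked up on either strand. It was found in 15 of the 24 listed genes with a RefSeq promoter (62.5%), against 3.72% of tested and 3.99% of all promoters. The list was chosen with earlier results of these data known, so this share only describes it. Without a match, Ifit2 rose and Oasl1 fell. Stretches with the matches in capitals are shown for Ifit1 (chr19:34640755-34640824, plus strand, first match at -104), Ifit3 (chr19:34583343-34583416, plus strand, -156), Isg15 (chr4:156200857-156200926, minus strand, -78, overlapping matches) and Rsad2 (chr12:26456533-26456602, minus strand, -120), as members that rose here and were lower with pralsetinib than with selpercatinib.
Ifit1: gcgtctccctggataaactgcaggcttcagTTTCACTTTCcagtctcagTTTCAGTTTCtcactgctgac
Ifit3: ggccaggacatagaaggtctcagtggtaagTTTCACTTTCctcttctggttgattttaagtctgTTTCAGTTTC
Isg15: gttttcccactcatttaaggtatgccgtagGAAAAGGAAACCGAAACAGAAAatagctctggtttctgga
Rsad2: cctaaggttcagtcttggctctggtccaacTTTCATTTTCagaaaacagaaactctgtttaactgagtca

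Genes of RNA sensors rose, by less than those of several effectors. Ddx58, which encodes RIG-I, had 65.0 and 80.3 CPM in the pralsetinib-resistant libraries, against 13.2 and 12.7 CPM in the parental libraries. Ifih1, which encodes MDA5, had 26.1 CPM at 200 nM and 32.3 CPM at 400 nM, against 7.03 and 7.32 CPM in parental cultures. Their log2 fold changes were 2.49 (SE 0.11, adjusted p = 7.30e-07) and 2.02 (SE 0.13, adjusted p = 4.63e-06). Stat2 rose by 1.45 (SE 0.075, adjusted p = 1.61e-06), while Irf9 and Irf7 did not pass the test, at -0.19 (SE 0.094, adjusted p = 0.11) and 0.81 (SE 0.32, adjusted p = 0.0515). Of the effectors, Ifit2, which binds foreign RNA, had 20.8 and 19.7 CPM with pralsetinib resistance and 1.56 and 1.74 CPM in parental cells. Gbp2, a guanylate-binding protein gene, had 27.2 and 35.8 CPM in the pralsetinib-resistant libraries, against 1.82 and 1.14 CPM in the parental libraries, and Gbp3 rose by 4.94 (SE 0.38, adjusted p = 1.37e-05). Of the members that fell, Oasl1 had 1.07 CPM at 200 nM and 1.41 CPM at 400 nM, against 13.0 and 13.6 CPM in parental cultures. The other, Usp18, a protease that removes ISG15, had 0.774 and 0.526 CPM with pralsetinib resistance and 2.53 and 2.24 CPM in parental cells. Ifit3 and Ifit3b are near-identical, so the reads of either could have been counted for the other, and both levels are uncertain.

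The rise was smaller than in selpercatinib-resistant cultures. With pralsetinib, 21 of the 30 members were lower than with selpercatinib and none was higher, where 1027 genes (7.14%) were lower and 653 (4.54%) higher over the whole table. A gene could pass the filter through the selpercatinib-resistant libraries alone, so that little but a lower call could be made for it. How many members passed in this way was not counted, in this list or in the others compared with selpercatinib. With a minimum of 5 CPM, a filter that can be passed in the same way, 15 members were lower. Without the first or the second selpercatinib-resistant library 15 and 16 members were lower. The median log2 difference, pralsetinib-resistant minus selpercatinib-resistant, was -1.69, against 0.0085 over all genes. Ifit1 had 2.96 and 2.44 CPM in the pralsetinib-resistant and 18.5 and 16.3 CPM in the selpercatinib-resistant libraries, and 0.105 and 0.172 CPM in parental libraries. Its difference between the resistant groups was -2.69 (SE 0.14, adjusted p = 9.08e-04), and that of Isg15 was -2.37 (SE 0.13, adjusted p = 9.08e-04), with 3.22 and 2.70 CPM in pralsetinib-resistant, 15.3 and 15.4 CPM in selpercatinib-resistant and 0.842 and 1.03 CPM in parental libraries. Rsad2, an antiviral enzyme gene, differed by -2.98 (SE 0.21, adjusted p = 0.001), and Irf7 by -2.37 (SE 0.23, adjusted p = 0.002). The sensors did not pass this test, with -0.10 (SE 0.10, adjusted p = 0.566) for Ddx58 and -0.27 (SE 0.11, adjusted p = 0.168) for Ifih1. Summed over the list, expression was 354 and 380 CPM in pralsetinib-resistant, 649 and 622 CPM in selpercatinib-resistant and 115 and 116 CPM in parental libraries, and the comparisons of either resistant group with the parental cultures share the same parental libraries.

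**Figure D3:**
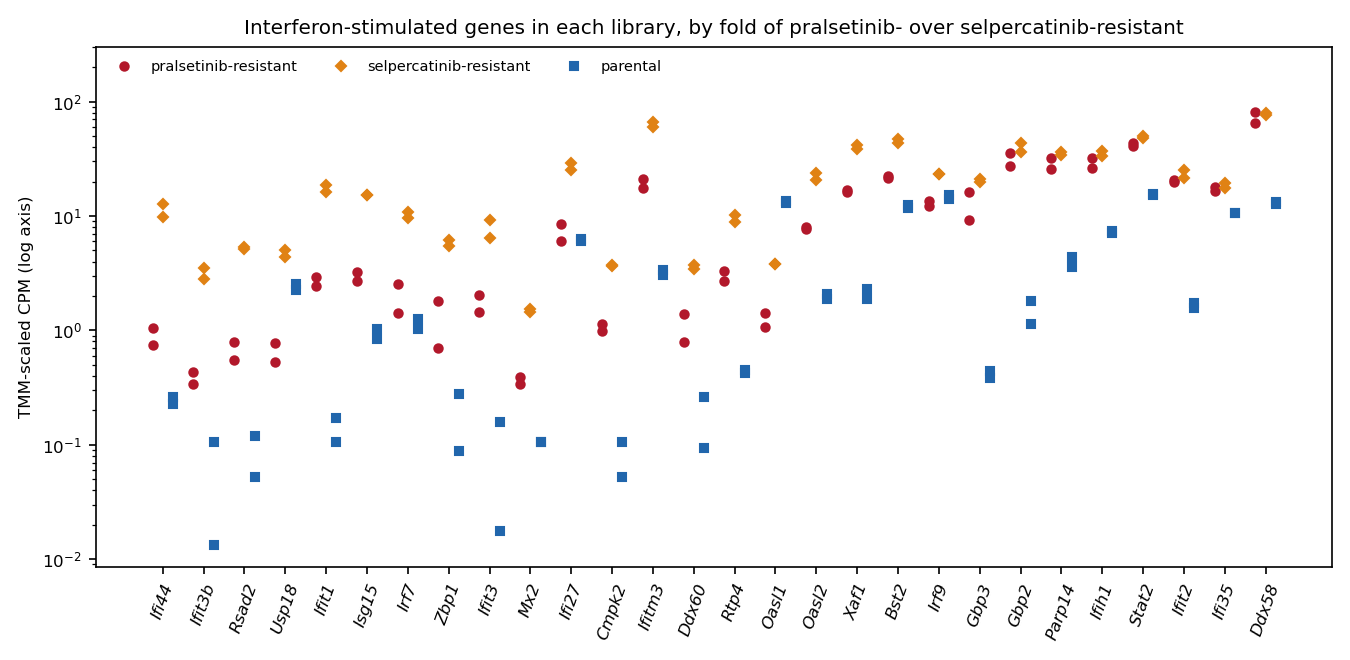
Expression of 28 interferon-stimulated genes with a count in every library, ordered by the fitted log2 difference of the pralsetinib-resistant from the selpercatinib-resistant cultures, on a log10 axis of TMM-scaled CPM. Circles are the pralsetinib-resistant libraries, diamonds the selpercatinib-resistant and squares the parental libraries. Ddx58 and Ifit2 lie close together in both resistant groups, while Ifit1 lies at 2.96 and 2.44 CPM with pralsetinib and at 18.5 and 16.3 CPM with selpercatinib.

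Genes of antigen presentation on MHC class I numbered 15 higher and 3 lower of 20, with a median of 1.42. Of the 20, 6 passed the filter only outside the parental libraries, so that little but a rise could be called for them, and 1 only through them. Tapbp, the peptide-loading chaperone tapasin, had 235 and 234 CPM in the pralsetinib-resistant libraries, against 60.1 and 61.6 CPM in the parental libraries, a log2 fold change of 1.95 (SE 0.064, adjusted p = 1.78e-07). The light chain gene B2m had 361 CPM at 200 nM and 377 CPM at 400 nM, against 185 and 193 CPM in parental cultures. The immunoproteasome genes Psmb10, Psmb8 and Psmb9 rose by 2.22 (SE 0.13, adjusted p = 2.60e-06), 5.29 (SE 0.34, adjusted p = 4.65e-06) and 4.23 (SE 0.42, adjusted p = 4.85e-05), and the peptide transporter genes Tap1 and Tap2 by 2.85 (SE 0.34, adjusted p = 1.44e-04) and 2.98 (SE 0.25, adjusted p = 2.02e-05). The heavy chain genes given here were not among those called higher. H2-D1 fell, at -0.52 (SE 0.062, adjusted p = 1.40e-04), H2-T23, a nonclassical chain, fell by 2.03 (SE 0.22, adjusted p = 9.34e-05), and H2-K1 did not pass, at -0.14 (SE 0.078, adjusted p = 0.138). H2 genes are similar in sequence, so counts can be split among them. The activator gene Nlrc5 was the other member that fell, at 0.394 and 0.415 CPM with pralsetinib resistance and 1.28 and 1.58 CPM in parental cells.

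Of 27 measured chemokine and cytokine genes 17 rose and 9 fell, with a median of 2.38. The filter was passed by 5 of the 27 only outside and by 3 only through the parental libraries, which leaves little but a rise and a fall to be called. Cxcl12, a chemoattractant made by stroma, had 516 and 441 CPM in the pralsetinib-resistant libraries, against 0.947 and 0.875 CPM in the parental libraries, a log2 fold change of 9.04 (SE 0.18, adjusted p = 2.19e-08). Cxcl5, a neutrophil chemokine gene, had 938 CPM at 200 nM and 902 CPM at 400 nM, against 63.9 and 57.5 CPM in parental cultures, and Cxcl1, another, rose by 2.39 (SE 0.063, adjusted p = 7.38e-08). The monocyte chemokine genes Ccl2, Ccl7 and Ccl9 were higher at 400 than at 200 nM. Ccl2 had 226 and 387 CPM with pralsetinib resistance and 10.0 and 9.14 CPM in parental cells. Ccl9 had 198 and 397 CPM in the pralsetinib-resistant libraries, against 2.63 and 2.24 CPM in the parental libraries. The differences of the 400 from the 200 nM library were 0.78 (SE 0.14, adjusted p = 0.002), 0.90 (SE 0.12, adjusted p = 3.29e-04) and 1.00 (SE 0.13, adjusted p = 2.10e-04), of which that of Ccl2 was not called by DESeq2 (adjusted p = 0.092). Il33, an alarmin gene, had 129 CPM at 200 nM and 71.2 CPM at 400 nM, against 7.14 and 6.80 CPM in parental cultures and was lower at 400 nM, at -0.85 (SE 0.071, adjusted p = 6.75e-06). The cytokine genes Il23a and Csf2 fell, by 4.61 (SE 0.13, adjusted p = 9.25e-08) and 3.91 (SE 0.12, adjusted p = 1.09e-07), and Lif fell by 1.72 (SE 0.13, adjusted p = 1.05e-05).

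Genes of the dividing cell were higher in the pralsetinib-resistant cultures by small factors. DNA replication genes numbered 21 higher and 2 lower of 28, with a median of 0.63, and mitosis genes 22 higher and 1 lower of 26, with a median of 0.69. Tyms, which makes thymidylate, had 66.5 and 75.3 CPM with pralsetinib resistance and 27.3 and 23.4 CPM in parental cells. The helicase subunit gene Mcm5 had 115 and 139.9 CPM in the pralsetinib-resistant libraries, against 54.9 and 54.5 CPM in the parental libraries. Kif20a and Birc5, which act in cytokinesis and on the chromosomal passenger complex, rose by 1.63 (SE 0.10, adjusted p = 3.12e-06) and 1.47 (SE 0.089, adjusted p = 3.79e-06), and Mki67 by 0.97 (SE 0.10, adjusted p = 7.76e-05). Cdt1, which licenses replication origins, and Mcm4 were the replication genes that fell, at -0.94 (SE 0.086, adjusted p = 3.44e-05) and -0.38 (SE 0.12, adjusted p = 0.0196), and Kif23 the mitosis gene, at -0.28 (SE 0.078, adjusted p = 0.0133). The calls of Mcm4 and Kif23 were lost without the first parental library (adjusted p = 0.094 and 0.084), and that of Mcm4 also without the second (adjusted p = 0.081), while without the 400 nM library 4 replication and 2 mitosis genes were called lower. Replication and mitosis genes had median differences of the 400 from the 200 nM library of 0.23 and 0.23, against -0.016 over all genes. Ribosome biogenesis genes, which growth signals induce, were lower for 15 and higher for 3 of 23, with a median of -0.41, led by the polyamine enzyme gene Odc1 at -0.92 (SE 0.069, adjusted p = 1.12e-05) and the nucleolar genes Gnl3 and Npm1 at -0.76 (SE 0.071, adjusted p = 3.76e-05) and -0.68 (SE 0.069, adjusted p = 6.22e-05).

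Of 22 glycolysis and hypoxia genes 17 were called lower and 2 higher, with a median of -0.49, and without the 400 nM library 5 were called higher. The hexokinase gene Hk2 had 95.4 CPM at 200 nM and 93.2 CPM at 400 nM, against 221 and 232 CPM in parental cultures. The glucose transporter gene Slc2a1 had 72.9 and 60.7 CPM with pralsetinib resistance and 207 and 205 CPM in parental cells. Together with Pdk1, a kinase that keeps pyruvate out of mitochondria, these genes changed by -1.26 (SE 0.06, adjusted p = 1.05e-06), -1.63 (SE 0.10, adjusted p = 3.98e-06) and -1.40 (SE 0.094, adjusted p = 6.31e-06). The median difference of the 400 from the 200 nM library was -0.26 for this list, against -0.016 over all genes. Gapdh and Pfkl did not pass against the parental cultures, at 0.055 and 0.082. Pfkfb3 and Car9, a regulator of glycolytic flux and a carbonic anhydrase, were those that rose, by 0.44 (SE 0.076, adjusted p = 0.0012) and 0.84 (SE 0.23, adjusted p = 0.0113), the call of Car9 being lost without the first or the second parental library (adjusted p = 0.070 and 0.055).

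Of 23 lysosome genes 14 were called higher and 5 lower, with a median of 0.48. Their median difference of the 400 from the 200 nM library was -0.31, against -0.016 over all genes. Without the second parental library 3 were lower than in parental cultures. The membrane protein gene Lamp2 had 318 and 311 CPM in the pralsetinib-resistant libraries, against 185 and 205 CPM in the parental libraries. Psap, which encodes the precursor of the saposins, had 949 CPM at 200 nM and 767 CPM at 400 nM, against 499.7 and 508 CPM in parental cultures. The protease gene Ctsl and the autophagy receptor gene Sqstm1 fell, by 1.64 (SE 0.081, adjusted p = 1.22e-06) and 1.18 (SE 0.066, adjusted p = 2.45e-06). All 13 mitochondrially encoded messenger RNAs were called higher, with a median of 0.77. The complex I gene mt-Nd5 had 3467 and 3378 CPM with pralsetinib resistance and 1746 and 1829 CPM in parental cells. These transcripts are also read as a sign of RNA quality, and mt-Nd6 lies antisense to its neighbours, so its value depends on the strand setting, which is not given in the sources used here.

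Gclm and Gclc, the subunit genes of glutamate-cysteine ligase in glutathione synthesis, rose. Gclm had 310.5 and 354 CPM in the pralsetinib-resistant libraries, against 75.9 and 74.8 CPM in the parental libraries, a log2 fold change of 2.14 (SE 0.076, adjusted p = 2.57e-07), and Gclc rose by 1.33 (SE 0.075, adjusted p = 2.45e-06). Gsta3, a glutathione transferase gene, had 25.5 CPM at 200 nM and 31.0 CPM at 400 nM, against 0.0702 and 0 CPM in parental cultures. The transferase genes Gsta4 and Gstm1 rose by 2.25 (SE 0.073, adjusted p = 1.63e-07) and 1.97 (SE 0.07, adjusted p = 2.54e-07). Near-identical transferase copies make single values uncertain. NRF2 targets were not all higher, and Txnrd1 and Gsr, which reduce thioredoxin and glutathione, fell by 0.41 (SE 0.10, adjusted p = 0.0062) and 0.41 (SE 0.057, adjusted p = 3.68e-04). Without the second parental library the call of Txnrd1 was lost (adjusted p = 0.0505). Of 19 members, 2 of which passed the filter only outside the parental libraries, 12 rose and 4 fell, with a median of 0.20. Without the second parental library 7 rose.

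Of 10 drug efflux transporters 3 were called higher and 5 lower, with a median of -0.52. Over all genes 36.0% were called higher and 34.9% lower, so calls in both directions are not particular to this list. Of the 10, 2 passed the filter only through the parental libraries, and without either parental library 3 were lower. Abcb1a, a P-glycoprotein gene, had 5.67 and 3.43 CPM with pralsetinib resistance and 58.7 and 61.7 CPM in parental cells. Its near-identical copy Abcb1b had 26.5 and 32.2 CPM in the pralsetinib-resistant libraries, against 114 and 116 CPM in the parental libraries, and reads can be split between them. Abcg2, another exporter of kinase inhibitors, had 38.6 CPM at 200 nM and 49.9 CPM at 400 nM, against 9.89 and 11.8 CPM in parental cultures, a log2 fold change of 2.02 (SE 0.14, adjusted p = 8.68e-06). Of 20 enzymes of drug and retinoid metabolism, 5 of which passed the filter only outside the parental libraries, 12 rose and 3 fell, with a median of 0.59, and 5 fell without the 200 nM library. Cyp1b1, a cytochrome P450 gene, had 439.8 and 411 CPM with pralsetinib resistance and 37.5 and 38.7 CPM in parental cells. The retinaldehyde dehydrogenase genes Aldh1a1 and Aldh1a3 moved in opposite directions. Aldh1a1 had 81.2 and 102 CPM in the pralsetinib-resistant libraries, against 0.860 and 1.06 CPM in the parental libraries. Aldh1a3 had 1.66 CPM at 200 nM and 0.886 CPM at 400 nM, against 89.4 and 84.9 CPM in parental cultures. Ugt1a7c, a glucuronosyltransferase gene, rose by 6.46 (SE 0.20, adjusted p = 1.50e-07), the epoxide hydrolase gene Ephx1 by 3.46 (SE 0.12, adjusted p = 2.57e-07) and Rarb, a retinoic acid receptor that retinoids induce, by 5.02 (SE 0.32, adjusted p = 4.69e-06).

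Of the 15 genes with the largest rises, 6 had no count in either parental library and are given as lower bounds. Nxph1, a ligand of neurexins, had 14.9 and 21.0 CPM in the pralsetinib-resistant libraries and was at least 792-fold higher, Dclk3, a kinase of the doublecortin family, had 15.7 and 17.7 CPM and was at least 738-fold higher, and Tmem178 had 19.5 and 9.66 CPM and was at least 642-fold higher. Dchs2, a large cadherin gene, and Kank4, a KANK family gene, were at least 491-fold and 445-fold higher, and Myl9 was given with the contractile genes. Fmod, a collagen-binding proteoglycan gene, had 77.3 and 58.5 CPM with pralsetinib resistance and 0 and 0.0133 CPM in parental cells. Sult1c2, a sulfotransferase gene, had 118 and 124 CPM in the pralsetinib-resistant libraries, against 0.0175 and 0.0265 CPM in the parental libraries. The ratios of the pralsetinib-resistant to the parental level were 8979 (95% counting interval 1611 to 354680.0) and 5349.8 (95% counting interval 1830.3 to 25944). Postn, the matricellular gene periostin, had 149 CPM at 200 nM and 427 CPM at 400 nM, against 0.0702 and 0.0398 CPM in parental cultures. Nts, the precursor gene of the neuropeptide neurotensin, had 73.6 and 293 CPM with pralsetinib resistance and 0.0351 and 0.0531 CPM in parental cells. Igfbp2, which binds insulin-like growth factors, had 77.2 and 59.1 CPM in the pralsetinib-resistant libraries, against 0.0351 and 0.0265 CPM in the parental libraries, and Sfrp2, Dcn, Col1a2 and Acta2 completed the 15.

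The 15 largest falls were of genes near silence in the resistant libraries. Kcnk1, a potassium channel gene, had no count there and 14.9 and 16.2 CPM in the parental libraries, at least 748-fold lower. Aqp8, a water channel gene, had 0.0282 CPM at 200 nM and 0 CPM at 400 nM, against 46.6 and 49.8 CPM in parental cultures, lower by a ratio of 3471 (95% counting interval 960.4 to 28665). Ppp2r2c, a regulatory subunit gene of phosphatase 2A, had 0.0282 and 0.0277 CPM with pralsetinib resistance and 66.6 and 68.6 CPM in parental cells. Tns4, a tensin of focal adhesions, had 0.155 and 0.0415 CPM in the pralsetinib-resistant libraries, against 152 and 147 CPM in the parental libraries. Their log2 fold changes were -11.15 (SE 0.17, adjusted p = 3.96e-09) and -10.55 (SE 0.20, adjusted p = 2.02e-08). Slc14a1, a urea transporter gene, Tmprss11e, a membrane serine protease gene, and Csn3, which encodes kappa-casein, changed by -10.43 (SE 0.21, adjusted p = 9.55e-09), -9.58 (SE 0.25, adjusted p = 1.57e-08) and -9.27 (SE 0.26, adjusted p = 2.02e-08). Ap1m2, an epithelial adaptor subunit of vesicle sorting, had 0 CPM at 200 nM and 0.0415 CPM at 400 nM, against 18.2 and 17.8 CPM in parental cultures. Il24, a cytokine gene, had 0.0422 and 0 CPM with pralsetinib resistance and 11.7 and 14.3 CPM in parental cells. Acan, the proteoglycan aggrecan, had 1.15 and 0.692 CPM in the pralsetinib-resistant libraries, against 492 and 501 CPM in the parental libraries, with -9.07 (SE 0.15, adjusted p = 1.16e-08). Dynap, Cwh43 and Tmem132c were also among the 15, at 62.2 and 69.6, 23.5 and 25.0 and 13.0 and 14.8 CPM in the parental libraries, as were Esrp1 and Wnt7a.

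The resistant libraries differed from each other more than the parental pair did. At 5 CPM or more in either library of a pair, 28 genes were at least 2-fold higher and 85 at least 2-fold lower in the 400 nM than in the 200 nM library, whereas no gene differed that much between the parental libraries. In a fit with each dose as its own group, 52 genes (0.361%) were called at least 2-fold higher and 187 (1.30%) at least 2-fold lower at 400 nM. This test has 1 library per dose, and its spread comes from the parental and selpercatinib-resistant pairs, so dose and any other difference between these 2 cultures cannot be told apart. Nts showed the second largest rise by the naming rule, with 1.99 (SE 0.18, adjusted p = 1.05e-05), after Asb4, a subunit of ubiquitin ligases, with 2.38 CPM at 200 nM and 9.54 CPM at 400 nM, against 0.123 and 0.0265 CPM in parental cultures. Slc6a15, an amino acid transporter gene, Pou3f1, a POU transcription factor gene, and Cd36, a fatty acid transporter gene, differed by 1.98 (SE 0.21, adjusted p = 4.17e-05), 1.53 (SE 0.16, adjusted p = 4.67e-05) and 1.29 (SE 0.14, adjusted p = 4.71e-05). Ccdc141 and the zinc finger gene Plagl1 followed the same direction, at 1.65 (SE 0.20, adjusted p = 1.23e-04) and 1.32 (SE 0.18, adjusted p = 3.43e-04), as did Cyp2j5 and Cyp2j9, neighbouring P450 genes of similar sequence, at 1.47 (SE 0.26, adjusted p = 0.0023) and 1.45 (SE 0.22, adjusted p = 7.71e-04). DESeq2 did not call Ccdc141, Cyp2j5 and Cyp2j9 (adjusted p = 0.063, 0.38 and 0.26).

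**Figure D4:**
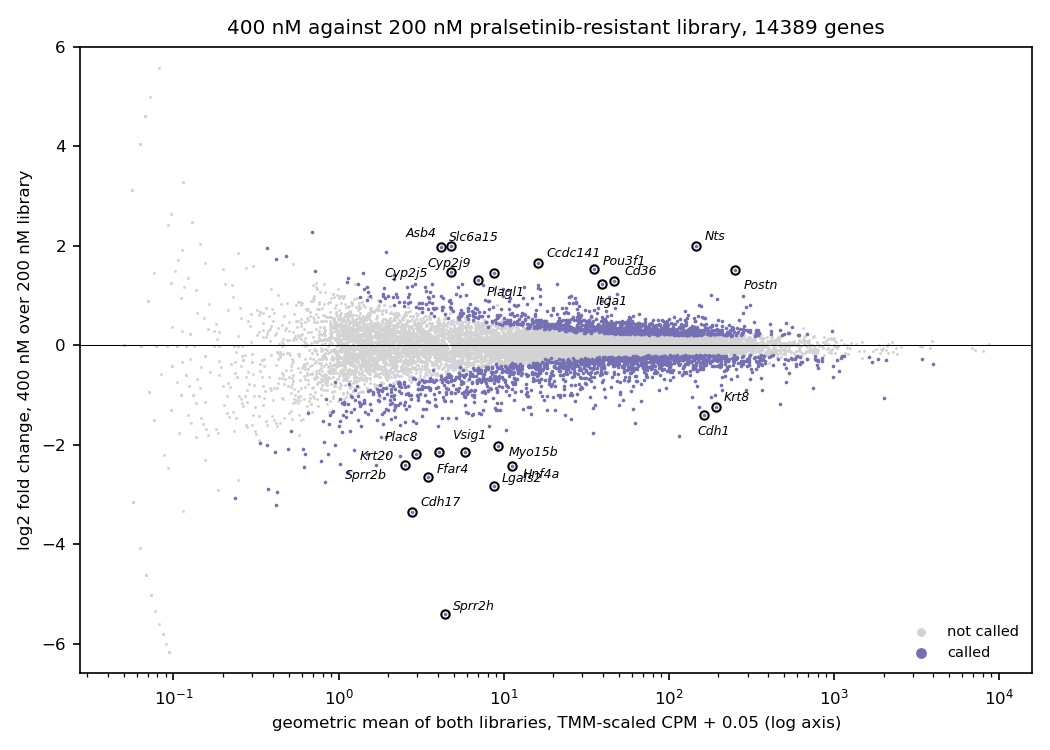
Log2 difference of the 400 nM minus the 200 nM pralsetinib-resistant library against the geometric mean of both libraries (TMM-scaled CPM + 0.05, log axis) for all 14389 tested genes. Coloured dots are genes called in the fit with each dose as a group, grey dots those not called, and labels mark the genes named for the dose pair with Cdh1, Krt8 and Itga1. Nts and Postn lie above 0 and Sprr2h, Cdh17 and Hnf4a well below it.

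Genes of gut and gastric epithelium were among those lower in the 400 nM library. Sprr2h, a cornified envelope precursor gene with close copies, had 27.6 and 0.651 CPM with pralsetinib resistance and 26.0 and 22.4 CPM in parental cells, with the 200 nM library near the parental level and the 400 nM library far below it. Cdh17, the liver-intestine cadherin gene, had 8.64 and 0.844 CPM in the pralsetinib-resistant libraries, against 52.4 and 49.0 CPM in the parental libraries, a dose difference of -3.35 (SE 0.24, adjusted p = 1.86e-06). Hnf4a, a transcription factor of gut and liver, had 25.9 CPM at 200 nM and 4.83 CPM at 400 nM, against 67.3 and 61.6 CPM in parental cultures, a dose difference of -2.42 (SE 0.18, adjusted p = 2.89e-06). The galectin gene Lgals2 and Krt20, a keratin of gut epithelium, differed by -2.83 (SE 0.15, adjusted p = 1.98e-07) and -2.18 (SE 0.26, adjusted p = 1.20e-04), and Sprr2b by -2.41 (SE 0.25, adjusted p = 3.88e-05). In the gut and gastric list of 14 measured genes the median difference of the 400 from the 200 nM library was -0.69, against -0.016 over all genes. The summed level of the listed genes was 457 CPM at 200 nM and 392 CPM at 400 nM, against 561 and 557 CPM in parental cultures. With both libraries together 2 were higher and 4 lower, with a median of -0.25, and without either parental library 2 were lower. Of the 14, 1 passed the filter only outside and 1 only through the parental libraries. Some members stood above the parental libraries at 200 nM and below them at 400 nM. Vil1, which encodes villin, had 3.73 and 0.706 CPM with pralsetinib resistance and 1.79 and 1.27 CPM in parental cells. Sox9, a progenitor factor, fell in both libraries, at 21.0 and 17.5 CPM in the pralsetinib-resistant libraries, against 175 and 174 CPM in the parental libraries.

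**Figure D5:**
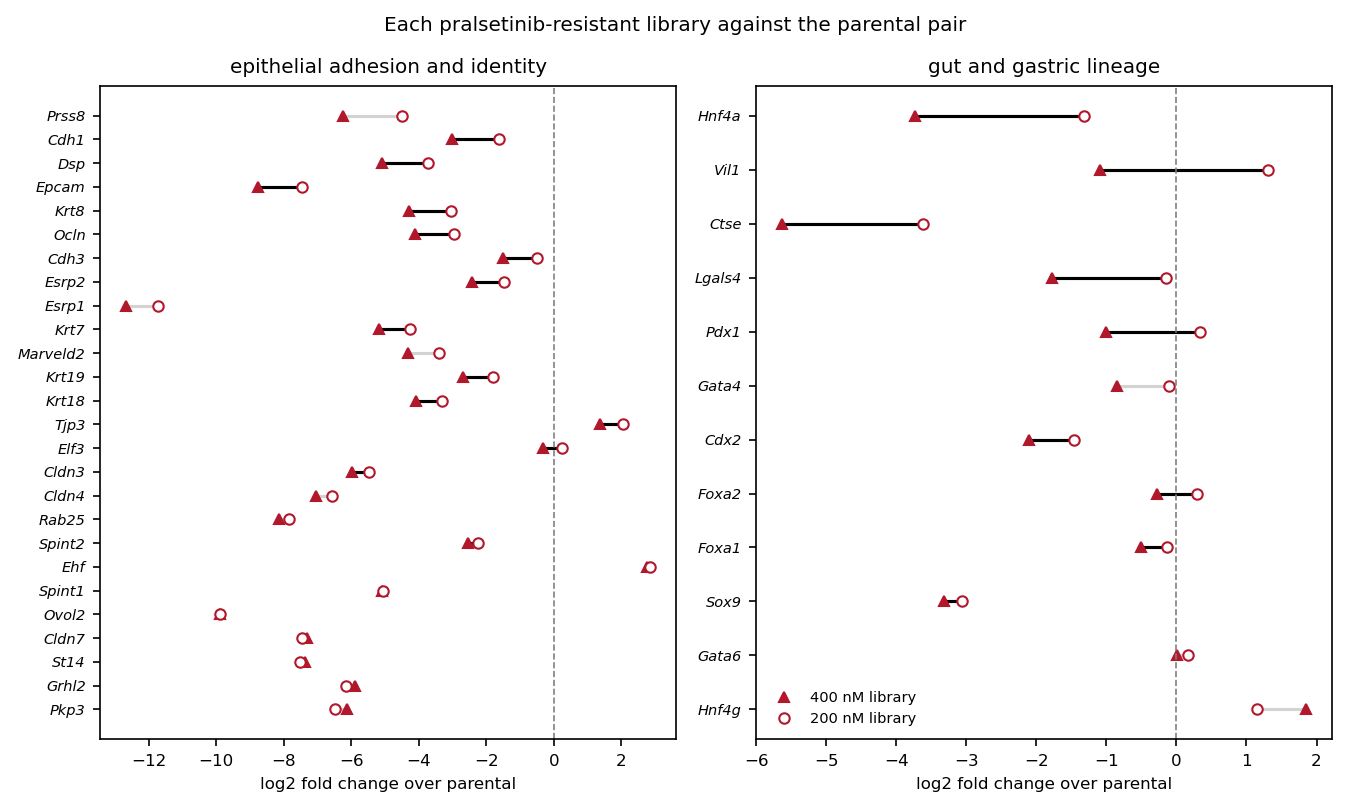
Log2 fold change over the parental libraries of 26 epithelial and 12 gut and gastric genes, drawn apart for the 200 nM and the 400 nM pralsetinib-resistant library. A line joins the 2 values of a gene, black where the difference between the libraries was called and grey where it was not. Vil1 and Hnf4a drop from the 200 to the 400 nM library, while Cldn7 and Grhl2 stay level.

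Over the whole table, 653 genes (4.54%) were higher and 1027 (7.14%) lower with pralsetinib than with selpercatinib. That total of 1680 rests on the libraries that enter the fit: it was 154 and 265 without the first or the second selpercatinib-resistant library, 556 to 558 without a parental library, and 4573 and 4036 without the 200 or the 400 nM library. Nts had 73.6 and 293 CPM in pralsetinib-resistant and 14.6 and 23.7 CPM in selpercatinib-resistant libraries, a difference of 3.25 (SE 0.57, adjusted p = 0.012). Cd36 and Pou3f1 differed by 2.64 (SE 0.39, adjusted p = 0.0077) and 2.42 (SE 0.46, adjusted p = 0.0175). Without the first selpercatinib-resistant library none of the 3 was called, with adjusted p = 0.13 for Nts, 0.094 for Cd36 and 0.16 for Pou3f1, nor was any without the second, with 0.073, 0.055 and 0.086 in the same order. The calls of Nts and Pou3f1 were also lost without either parental library (adjusted p = 0.059 and 0.065). Has2, which makes hyaluronan, and Tgfbi, a matrix protein gene, were lower with pralsetinib, at -2.45 (SE 0.17, adjusted p = 0.001) and -2.38 (SE 0.14, adjusted p = 9.08e-04). Tgfbi had 4.48 and 3.39 CPM in pralsetinib-resistant libraries, 21.8 and 19.2 CPM in selpercatinib-resistant libraries and 21.2 and 21.2 CPM in parental libraries. The serine protease gene Prss22 differed by -2.49 (SE 0.28, adjusted p = 0.0034). Among the fibroblast markers 8 of 12 were lower with pralsetinib and 1, Col1a2, was higher, a call lost with DESeq2 (adjusted p = 0.11) and without the first or the second selpercatinib-resistant library (adjusted p = 0.091 and 0.060). With pralsetinib 11 of 22 glycolysis genes and 11 of 22 matrix protease genes were lower with none higher. Without the first selpercatinib-resistant library these counts were 2 fibroblast markers, 3 glycolysis genes and 3 matrix protease genes lower.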

How the data were processed

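Raw gene counts were deposited as 1 table of 6 libraries with 55415 genes, whose name calls them CPM although all values are whole numbers. Per the labels' protocols, RNA was made into libraries with a stranded, poly(A)-selecting kit and 15 cycles of PCR without molecular identifiers. Per the submitters' processing notes, FastQC, STAR, edgeR and the mm10 build were used; how genes were counted, on which strand and with which annotation is not given in the sources used here. Symbols were matched regardless of case to the GENCODE M21 annotation, 55391 of them, and 24 rows that hold 5-digit numbers, with 0.185 to 0.215% of counts, were left out of library sizes and tests. A further 114 symbols stand at more than 1 position.

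Totals were 68.7 and 68.2 M counts in the pralsetinib-resistant libraries, 64.7 and 76.7 M in the selpercatinib-resistant and 60.7 and 81.9 M in the parental libraries. Genes with 1 CPM or more in 2 or more libraries, 14389, entered edgeR 4.0.16 (R 4.3.3) with TMM scaling, a quasi-likelihood fit of 3 groups (3 residual degrees of freedom) and Benjamini-Hochberg adjustment over all genes at 0.05. The dose pair was taken from a fit of 4 groups (2 residual degrees of freedom), in which each dose has 1 library that is assumed to vary like the other groups. Standard errors are the log2 fold change over the root of the F statistic and are approximate. Genes at 0 in a group are given against a floor of 3 counts over the group, and ratios for 1 to 3 counts with a 95% exact (Clopper-Pearson) interval. Adjusted p-values are edgeR's unless DESeq2 is named. Alternatives were relative log expression scaling, other filters, DESeq2 1.42.0, limma 3.58.1 voom, legacy dispersions, fewer libraries and each library left out. Each fit was tested on simulated data. Chi-square statistics per degree of freedom between libraries of a pair were 56.6 for pralsetinib-resistant, 16.0 for selpercatinib-resistant and 8.11 for parental libraries, so no library was a copy of another.

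Named genes are Ret, Trim24 and Met, the 15 largest rises and falls among called genes with a mean of 5 CPM or more, the 10 largest differences each way between the doses, the 5 each way against the selpercatinib-resistant libraries, and members of 35 gene lists by lowest p or by role. Some genes that these rules name are not reported here. The comparison and the lists were chosen with earlier results of these data known, so membership is no independent support. Figures were drawn with matplotlib 3.10.9.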

Additional observations from a re-analysis of the deposited data

Results flagged for a closer look

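For 7 of the genes described here, 1 resistant library was called higher and the other lower than the parental pair. These directions and the difference of the 400 from the 200 nM library, given here on the log2 scale, come from the fit in which each dose is 1 library, so they have no replicate within a dose. They were among 54 such genes of 14389.

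Ffar4, a receptor for long-chain fatty acids, differed by -2.64 (SE 0.21, adjusted p = 3.89e-06), with 8.57 CPM at 200 nM and 1.37 CPM at 400 nM, against 3.26 and 3.29 CPM in parental cultures. Myo15b, an unconventional myosin gene, differed by -2.02 (SE 0.15, adjusted p = 2.99e-06), with 18.4 and 4.55 CPM with pralsetinib resistance and 7.61 and 7.49 CPM in parental cells. Vsig1, a junction protein gene of gastric epithelium, differed by -2.14 (SE 0.20, adjusted p = 1.34e-05), with 12.1 and 2.74 CPM in the pralsetinib-resistant libraries, against 8.70 and 6.87 CPM in the parental libraries, and Plac8 by -2.14 (SE 0.19, adjusted p = 1.10e-05), with 8.38 CPM at 200 nM and 1.90 CPM at 400 nM, against 6.40 and 6.41 CPM in parental cultures. For these 4 genes the 200 nM library lay above and the 400 nM library below the parental pair. The selpercatinib-resistant libraries had 13.4 and 11.9 CPM of Ffar4, 24.5 and 20.6 CPM of Myo15b, 15.4 and 13.6 CPM of Vsig1 and 3.78 and 3.78 CPM of Plac8.

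Vil1, from the gut and gastric list, differed by -2.40 (SE 0.33, adjusted p = 3.24e-04). Elf3, the epithelial ETS factor gene, had 32.8 and 22.4 CPM with pralsetinib resistance and 27.6 and 27.6 CPM in parental cells and differed by -0.55 (SE 0.086, adjusted p = 8.15e-04). Pfkl, a phosphofructokinase gene, had 304 and 218 CPM in the pralsetinib-resistant libraries, against 248 and 245 CPM in the parental libraries and differed by -0.48 (SE 0.065, adjusted p = 2.94e-04).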

How the results depend on the processing

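The count of genes called between pralsetinib-resistant and parental cultures, 10192, lay between 7951 and 11632 over every setting tried, the lowest without the second parental library and the highest with no filter on low counts. Of 311 named genes called there, 14 were tested and not called in at least 1 setting. A named gene that fell below the filter of a setting was not counted as lost, here or in the counts of lost calls that follow. Directions that turned belonged to genes not called: Elf3 had a log2 fold change of 0.018 with no filter, 0.027 with a minimum of 5 CPM, 0.014 in the fit of 4 libraries, 0.25 with the 200 nM library alone and 0.0017 without the first selpercatinib-resistant library. With either resistant library left out in turn, the ranges of log2 fold change ran from -0.30 to 0.25 for Elf3, -0.074 to 0.18 for Gapdh, -0.17 to 0.31 for Pfkl, -1.08 to 1.32 for Vil1, -0.25 to 0.066 for Zeb2, -1.70 to 0.40 for Nkx2-1, -5.21 to 0.20 for Sprr2h and -0.84 to 0.32 for Twist2. In the 4-group fit, the 400 nM library alone gave -0.079 for Gapdh, -0.18 for Pfkl, -1.08 for Vil1 and 0.061 for Zeb2, and the 200 nM library alone 0.40 for Nkx2-1, 0.19 for Sprr2h and 0.31 for Twist2. Twist2 had 0.16 without the second parental library. Of the list counts, 977 stayed within 1.5 times and 73 did not; epithelial genes called lower were 14 without either parental library, since fewer genes then pass the filter.

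Between pralsetinib-resistant and selpercatinib-resistant cultures, 1680 genes were called, 562 in a fit of these 4 libraries alone, 2371 with DESeq2, and 154 to 4573 when 1 library was left out. Of 114 named genes called there 86 lost the call in at least 1 setting. Between the 400 and 200 nM libraries 2473 were called, 1497 with no filter, 1602 with DESeq2 and 2387 to 2493 without 1 of the other libraries, and 38 of 122 named genes lost the call. The cause of these differences was not tested. No paired analysis was possible because the labels give the pralsetinib-resistant libraries a dose and no replicate number.

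Depth was 60.7 to 81.9 M counts, so counting error is small for most genes and the number of libraries sets the precision. In simulated counts 67, 67 and 66 of 14389 genes were changed 1.5-fold, 2-fold and 4-fold. Between pralsetinib-resistant and parental groups 46.3%, 86.6% and 100% of these were recovered, against 19.4%, 64.2% and 89.4% between the doses. In the data 70.8% of genes were called, a far larger share, so these rates need not hold there. The simulated spread came from the 3 groups, which counts the difference between the 2 pralsetinib-resistant libraries as spread. The rates for the doses include that difference.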

Other observations

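Genes that act on cell death and the cell cycle were called in both directions, as were all genes (36.0% higher and 34.9% lower). Of 14 measured BCL2 family genes 6 rose and 7 fell, with a median log2 fold change of -0.088. Bcl2l1, which encodes the survival protein BCL-XL, had 103 CPM at 200 nM and 80.9 CPM at 400 nM, against 269 and 287 CPM in parental cultures, a log2 fold change of -1.60 (SE 0.11, adjusted p = 6.80e-06). Bcl2 fell by 1.20 (SE 0.067, adjusted p = 2.34e-06), and among the killer genes of the family Bcl2l11, which encodes BIM, fell by 0.91 (SE 0.074, adjusted p = 1.78e-05) while Pmaip1 and Bid rose by 1.54 (SE 0.092, adjusted p = 3.36e-06) and 1.27 (SE 0.072, adjusted p = 2.60e-06). Of 19 p53 targets and cyclin-dependent kinase inhibitors 10 rose and 7 fell, with a median of 0.23. Cdkn1a, which encodes the kinase inhibitor p21, had 3.79 and 1.90 CPM with pralsetinib resistance and 49.0 and 48.7 CPM in parental cells, and the death receptor gene Fas had 35.9 and 23.1 CPM in the pralsetinib-resistant libraries, against 0.421 and 0.557 CPM in the parental libraries. Cdkn2c, another kinase inhibitor gene, rose by 1.64 (SE 0.10, adjusted p = 4.62e-06).

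Ligands that regulate T and natural killer cells were called higher in 5 of 11 cases and lower in 5, with a median of 0.12. Over all genes 36.0% were called higher and 34.9% lower. Icosl, the ligand gene of the costimulator ICOS, had 10.8 CPM at 200 nM and 24.0 CPM at 400 nM, against 0.193 and 0.106 CPM in parental cultures, and Lgals9, which encodes galectin 9, had 182 and 130.4 CPM with pralsetinib resistance and 38.3 and 37.1 CPM in parental cells. Pvr, a ligand gene of DNAM-1 and TIGIT, fell by 1.65 (SE 0.068, adjusted p = 5.16e-07), and Cd274, which encodes PD-L1, rose by 0.61 (SE 0.18, adjusted p = 0.0181), with 2.31 and 2.71 CPM in the pralsetinib-resistant libraries, against 1.79 and 1.53 CPM in the parental libraries. The call of Cd274 was lost without the second parental library (adjusted p = 0.14) or without the 400 nM library (adjusted p = 0.060). Of 27 sterol and fatty acid synthesis genes 13 fell and 4 rose, with a median of -0.16. Dhcr7, an enzyme of the last steps of cholesterol synthesis, had 56.8 CPM at 200 nM and 49.3 CPM at 400 nM, against 23.9 and 21.6 CPM in parental cultures. Without the first or the second parental library 7 and 8 of the sterol genes were called lower. Of 12 alveolar and airway genes, 3 of which passed the filter only outside the parental libraries, 6 rose and 1 fell, but 3 rose without the second parental library and 3 fell without the 200 nM library. Foxj1, a transcription factor of ciliated cells, had 56.4 and 77.3 CPM with pralsetinib resistance and 4.07 and 3.36 CPM in parental cells, and Cav1, the gene of caveolin 1, had 45.8 and 51.2 CPM in the pralsetinib-resistant libraries, against 228 and 251 CPM in the parental libraries.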
